A study of Homo sapiens with 27 samples.

Results

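The genes encoding integrin and laminin subunits were followed in 9 populations of 786-O cells, an established human clear cell renal cell carcinoma (ccRCC) line that lacks functional VHL. The set holds 36 genes, 17 integrin alpha subunits, 8 integrin beta subunits and 11 laminin chains, chosen by name from the 57773 rows of the count table. All populations carried a lentivirus that expressed a guide RNA together with spCas9. The sgCtrl population carried a control guide. The sgKDM5C_4 and sgKDM5C_5 populations carried guides against *KDM5C*, and the sgKDM5D_2 and sgKDM5D_4 populations carried guides against *KDM5D*, the Y-linked paralogue of this X-linked histone demethylase gene. The 4 double populations, sgKDM5C_4_sgKDM5D_2, sgKDM5C_4_sgKDM5D_4, sgKDM5C_5_sgKDM5D_2 and sgKDM5C_5_sgKDM5D_4, combined a guide against each gene. Each population was sequenced as 3 libraries (27 in all), which were not stated to come from separate cultures, so p-values measure only the spread between these libraries. The populations were infected cells and were not described as clones, and in such bulk RNA a change in the number of expressing cells and a change per cell cannot be told apart. The comparisons ask which subunit genes differed from sgCtrl in each mutant population, whether guides against the same gene gave the same result, and whether double mutant cells differed from single mutant cells.

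Integrins are cell surface receptors built from an alpha and a beta subunit, and the pairing sets which matrix protein or counter-receptor is bound. Beta 1 pairs with many alpha subunits to bind laminins, collagens and fibronectin, alpha v pairs with several beta subunits that recognise RGD motifs and latent TGF-beta, and beta 2 and beta 7 are best known from leukocytes. Laminins are trimers of an alpha, a beta and a gamma chain that form the sheet of basement membranes, to which epithelial cells, including those of the renal tubule, attach through integrins.

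Total counts ranged from 20172482 to 43383929 per library (median 26290323). *KDM5C* was at 124 ± 7.28 CPM (SD, n = 3) in sgCtrl, where CPM are counts scaled to a common library size with TMM factors, and its population means were between 33.2 and 43.6 CPM in the 6 populations with a guide against it. It was at 127 and 116 CPM in sgKDM5D_2 and sgKDM5D_4. *KDM5D* mRNA was higher than in sgCtrl in all 8 mutant populations (log2 fold changes 0.64 to 1.80), so its level gave no check of the sgKDM5D labels. Kidney carcinoma markers summed to between 2934 and 3637 CPM, of which *NDUFA4L2*, a gene often high in ccRCC, did not exceed 0.963 CPM in any library. *VIM* and *KRT8* had the highest levels of these, 1816 and 993 CPM in sgCtrl. By the call defined below, the marker *KRT18* was lower in both sgKDM5C populations (0.893% of all genes), with log2 fold changes of -0.67 and -0.80. It was also lower in sgKDM5C_5_sgKDM5D_2 (-1.08). Leukocyte markers summed to between 0.0674 and 0.802 CPM. The 4 libraries in the last columns of the deposited table (replicate 2 of sgCtrl, replicate 2 of sgKDM5C_5, replicate 1 of sgKDM5C_4_sgKDM5D_2 and replicate 3 of sgKDM5C_4_sgKDM5D_4) stood apart on the first component of the deviations from the population means. There they lay between 11.2 and 17.6, against -11.9 to 6.47 for the other libraries. The chi-square of library pairs, per degree of freedom, set other libraries apart too. In sgKDM5C_5 it was 23.1 and 21.8 for pairs with replicate 1 and 15.7 for the other pair. In sgKDM5D_4 it was 16.7 and 15.4 for pairs with replicate 3 and 4.3 for the other pair.

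In sgCtrl cells the set was led by the subunits of the laminin-binding integrin alpha 3 beta 1. Per kb of the canonical transcript, *ITGB1* was at 303 ± 8.52 CPM and *ITGA3* at 267 ± 14.1 CPM (SD, n = 3), and no library of one overlapped the other. The laminin beta and gamma chains *LAMB1* (76.8 ± 4.57 CPM per kb) and *LAMC1* (74.8 ± 4.32 CPM per kb) followed and differed by less than their SD. *ITGB5*, the beta subunit of alpha v beta 5, was at 68.5 ± 6.17, *ITGAV* at 43.7 ± 6.08 and the fibronectin receptor subunit *ITGA5* at 37.8 ± 3.91 CPM per kb. The most abundant laminin alpha chain was *LAMA3* (13.8 ± 1.24 CPM per kb), which differed from *LAMB2* (13.2 ± 0.923 CPM per kb) by less than its SD, while *LAMA5* was at 0.991 ± 0.0340. *ITGB8*, which pairs with alpha v, was at 4.20 ± 1.31 CPM per kb and had the widest spread relative to its mean among the members above 1 CPM per kb. *ITGAL*, *LAMB4* and *LAMC3* had no count in any sgCtrl library.

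Of the 36 genes, 29 had at least 120 counts over all libraries and were tested. The other 7, *ITGA2B*, *ITGA8*, *ITGA11*, *ITGAL*, *LAMA4*, *LAMB4* and *LAMC3*, never exceeded 10 counts in a library. The call required a change of more than 1.5-fold and an adjusted p below 0.001 in the quasi-likelihood test of edgeR, adjusted over 17016 genes by the Benjamini-Hochberg method. The 8 comparisons with sgCtrl share its 3 libraries. In sgKDM5C_4 cells 5 of the 29 genes were called (4.98% of all genes), 4 higher (3.21%) and 1 lower (1.77%). In sgKDM5C_5 cells 3 genes were called (5% of all genes), 1 higher (2.03%) and 2 lower (2.97%). In sgKDM5D_2 cells 1 gene was called (3.23% of all genes), higher (1.89%), and none lower (1.34%). In sgKDM5D_4 cells 8 genes were called (18.1% of all genes), of which 6 were higher (10.7%) and 2 lower (7.44%). Among the double populations, sgKDM5C_4_sgKDM5D_2 had 6 calls (6.06% of all genes), 5 higher (3.83%) and 1 lower (2.23%). In sgKDM5C_4_sgKDM5D_4 there were 7 calls (9.1% of all genes), all higher (5.86%, with 3.24% lower). In sgKDM5C_5_sgKDM5D_2 there were 7 (12.7% of all genes), 6 higher (7.92%) and 1 lower (4.77%), and in sgKDM5C_5_sgKDM5D_4 there were 5 (7.18% of all genes), 3 higher (3.3%) and 2 lower (3.87%). The median log2 fold change of the 29 genes lay between -0.19 in sgKDM5C_5 and 0.34 in sgKDM5D_4, beside -0.01 to 0.02 over all genes in these 8 comparisons. In at least 1 population 19 of the 29 genes were called, beside 32.4% of all genes. These were 7 of the 12 genes under 5 CPM in sgCtrl (31.7% of all genes at that level) and 12 of the 17 genes at or above it (32.9% of all genes).

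**Figure D1:**
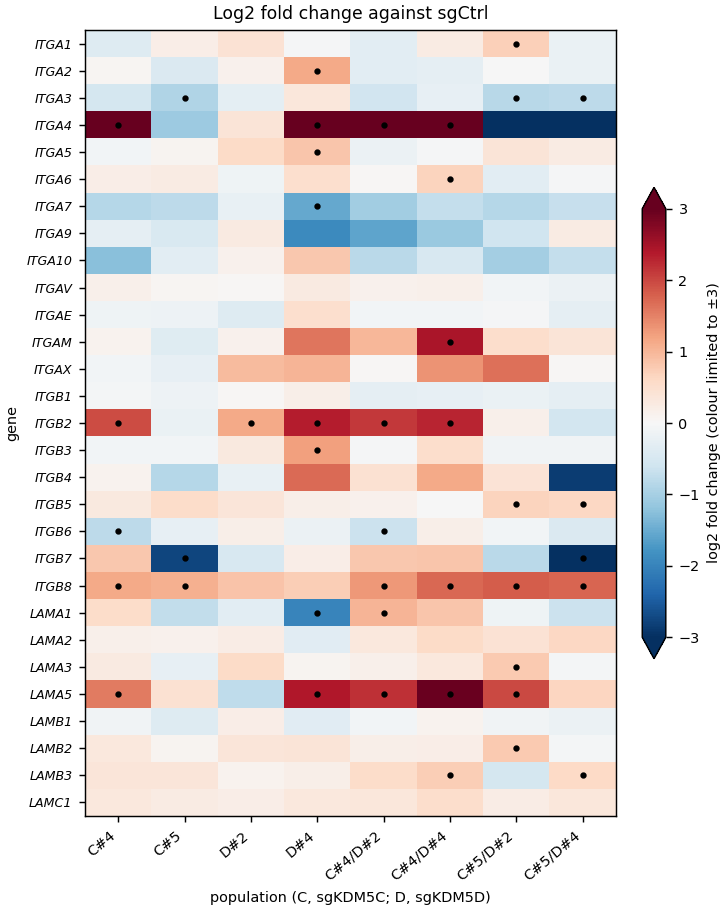
Log2 fold change against sgCtrl of the 29 tested genes (rows) in the 8 mutant populations (columns), red for higher and blue for lower, with a black dot where the gene was called. *ITGB8* is red in every column, and *ITGA4* is above 3 in the columns with the guides sgKDM5C_4 or sgKDM5D_4 except together with sgKDM5C_5, where its value was fitted to 0 counts.

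In both sgKDM5C populations 1 member was called (2.02% of all genes), in both sgKDM5D populations 1 (1.36% of all genes) and in all 4 double populations 1 (1.6% of all genes). The gene shared by both sgKDM5C and by all double populations was *ITGB8* (ENSG00000105855, chr7:20370325-20455377 of GRCh37, plus strand), whose product pairs with alpha v to bind latent TGF-beta. It was at 28.5, 51.0 and 33.7 CPM in the sgCtrl libraries. The sgKDM5C_4 libraries had 79.4, 81.5 and 87.2 CPM and the sgKDM5C_5 libraries 79.9, 96.4 and 61.3 CPM, all above the highest sgCtrl library. *ITGB8* rose by 1.13 (standard error 0.19) in sgKDM5C_4 and by 1.07 (0.19) in sgKDM5C_5 on the log2 scale, with adjusted p = 6.9e-05 and 0.00013 (edgeR). Its level was also above every sgCtrl library in sgKDM5D_2 (67.0 to 70.2 CPM) and sgKDM5D_4 (55.3 to 70.5 CPM). There its log2 fold changes of 0.85 and 0.75 did not pass the threshold, with adjusted p = 0.0019 in edgeR for each. The double populations had the highest mean levels, with 76.3 to 121 CPM in sgKDM5C_4_sgKDM5D_2, 95.4 to 162 in sgKDM5C_4_sgKDM5D_4, 123 to 138 in sgKDM5C_5_sgKDM5D_2 and 124 to 132 CPM in sgKDM5C_5_sgKDM5D_4. The log2 fold changes there were 1.30, 1.72, 1.80 and 1.74.

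The highest *ITGB8* level of sgCtrl, sgKDM5C_5, sgKDM5C_4_sgKDM5D_2 and sgKDM5C_4_sgKDM5D_4 each came from the library of that population that stood apart. Without these 4 libraries *ITGB8* was called in all 8 populations, with log2 fold changes of 1.03 in sgKDM5D_4 (edgeR, adjusted p = 5.2e-08), 1.14 in sgKDM5D_2 and up to 2.11 in sgKDM5C_5_sgKDM5D_2. With a term for these libraries in place of leaving them out it was again called in all 8, between 0.98 and 2.04. The calls in sgKDM5C_4 and sgKDM5C_5 were lost when replicate 1 of sgCtrl was left out (log2 fold changes 0.96 and 0.89, edgeR adjusted p = 0.0017 and 0.0032). Leaving out replicate 3 of sgCtrl gave 1.05 and 0.99 (adjusted p = 0.001 and 0.0019), and without replicate 2 of sgKDM5C_5 the value in that population was 0.87 (adjusted p = 0.0033). When only the compared populations were fitted, *ITGB8* was not called in sgKDM5C_4, sgKDM5C_5, sgKDM5C_4_sgKDM5D_2 or sgKDM5C_4_sgKDM5D_4. Its log2 fold changes there were 1.13, 1.06, 1.31 and 1.73 (edgeR, adjusted p = 0.0015, 0.018, 0.0087 and 0.001). No difference between guides against the same gene was called for *ITGB8*. The log2 difference between sgKDM5C_4 and sgKDM5C_5 was 0.06 (95% interval -0.32 to 0.44) and that between sgKDM5D_2 and sgKDM5D_4 was 0.10 (-0.28 to 0.49). The mean of the double populations lay 0.84 above that of the sgKDM5D populations (edgeR, adjusted p = 9.7e-07), a call, and 0.55 above that of the sgKDM5C populations (adjusted p = 0.0015), which was not. *ITGB8* is shown here with the 250 bases before its RefSeq start because it is the member called most widely. The stretch (chr7:20330650-20330899 of GRCh38.p14, plus strand) reads 5′ to 3′ with CpG dinucleotides in capitals, of which there are 21.
ITGB8: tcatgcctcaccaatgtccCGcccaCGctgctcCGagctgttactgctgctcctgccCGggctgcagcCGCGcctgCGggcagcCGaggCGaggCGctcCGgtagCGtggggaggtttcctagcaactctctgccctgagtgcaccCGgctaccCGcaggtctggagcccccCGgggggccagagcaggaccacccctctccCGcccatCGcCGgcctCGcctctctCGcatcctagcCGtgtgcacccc

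**Figure D2:**
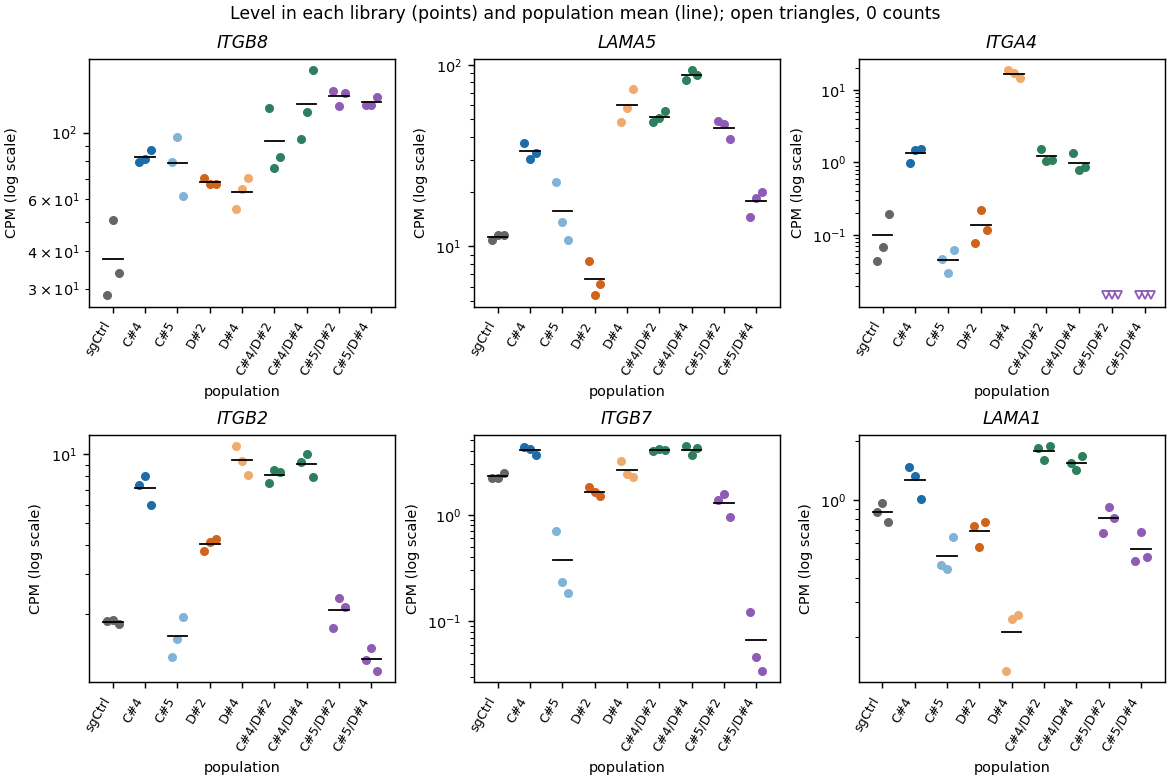
CPM of 6 subunit genes in each of the 27 libraries on log axes, with a line at each population mean and open triangles for 0 counts. All mutant libraries are above the sgCtrl libraries for *ITGB8*, while for *ITGA4*, *ITGB2*, *ITGB7* and *LAMA1* every library with the guide sgKDM5C_4 lies above every library with sgKDM5C_5.

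The guides against *KDM5C* were next compared with each other, since they target overlapping sites in the same gene. Between sgKDM5C_4 and sgKDM5C_5 cells 5 of the 29 genes were called (3.71% of all genes), all higher with sgKDM5C_4 (2.97%, with 0.74% lower): *ITGA4*, *ITGB2*, *ITGB7*, *LAMA1* and *LAMA5*. The double populations hold a separate comparison of the same guides, with no library in common with the first. Between the double populations with sgKDM5C_4 and those with sgKDM5C_5, 8 genes were called (7.08% of all genes), again all higher with sgKDM5C_4 (4.3%, with 2.78% lower). All 5 genes called between the single populations were among these 8. Over all genes, 416 of the 632 called between the single populations (65.8%, and 34.6% of the 1204 called between the double populations) were called in the same direction, and 3 in the opposite one. The other 3 members, *ITGAM*, *ITGB4* and *LAMB3*, were called in the double populations alone, with log2 differences of 1.26, 2.02 and 0.61. When single libraries were left out, the call was lost in 7 of 12 fits for *ITGAM*, in 10 of 12 for *ITGB4* and in 1 of 12 for *LAMB3*. *GALK1*, which overlaps *ITGB4* on the other strand, had 2940% of its counts.

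*ITGA4* (ENSG00000115232, chr2:182321929-182403667 of GRCh37, plus strand) encodes alpha 4, which pairs with beta 1 or beta 7 and binds VCAM1 and fibronectin. It was close to absent in sgCtrl, with 1, 2 and 5 counts in the 3 libraries. The sgKDM5C_5 libraries had 1, 1 and 2 counts and the sgKDM5D_2 libraries 2, 5 and 3. In contrast, *ITGA4* had 24, 64 and 41 counts in sgKDM5C_4, a ratio to sgCtrl of 13.4 per total count (95% counting interval 6.6 to 31.7). In sgKDM5D_4 it had 418, 496 and 337 counts, corresponding to 16.8 ± 2.15 CPM (SD, n = 3) and a ratio of 165 (83.3 to 382). The high level of sgKDM5D_4 was not seen in either double population with that guide. Of the double populations with sgKDM5C_4, there were 46, 30 and 24 counts in sgKDM5C_4_sgKDM5D_2 and 38, 23 and 28 in sgKDM5C_4_sgKDM5D_4. All 6 libraries with sgKDM5C_5 and either sgKDM5D guide had 0 counts, against the 8 counts of sgCtrl. The 95% counting intervals of the ratio to sgCtrl reached up to 0.618 in sgKDM5C_5_sgKDM5D_2 and 0.605 in sgKDM5C_5_sgKDM5D_4. With an assumed floor of 3 counts over the 3 libraries these populations would be 2.53-fold and 2.58-fold lower, which are not lower bounds. Between the single populations the log2 difference between sgKDM5C_4 and sgKDM5C_5 was 4.76 (edgeR, adjusted p = 6.4e-08). The fitted difference between the double populations, 7.91, and the interaction of both genes' guides, -5.70, use the populations at 0 and give no measure of size. Counts of *CERKL*, which overlaps *ITGA4* on the other strand, came to 18.2% of those of *ITGA4* over all libraries, and the strand setting of the counting was not given. The 250 bases before the RefSeq start of *ITGA4* (chr2:181457136-181457385 of GRCh38.p14, plus strand) hold 25 CpG dinucleotides, in capitals, and are shown for comparison with *ITGB7*, another of the 5 genes called between the *KDM5C* guides.
ITGA4: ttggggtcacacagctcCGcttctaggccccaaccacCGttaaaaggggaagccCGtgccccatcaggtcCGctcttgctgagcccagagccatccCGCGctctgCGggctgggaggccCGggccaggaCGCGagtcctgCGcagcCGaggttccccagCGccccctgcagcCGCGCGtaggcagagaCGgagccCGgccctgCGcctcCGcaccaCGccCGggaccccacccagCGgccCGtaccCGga

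*ITGB7* (ENSG00000139626, chr12:53585107-53601066 of GRCh37, minus strand) encodes beta 7, a partner of alpha 4 and alpha E in lymphocytes. It was at 2.21, 2.19 and 2.47 CPM in sgCtrl, at 4.32, 4.12 and 3.63 CPM in sgKDM5C_4 and at 0.699, 0.236 and 0.184 CPM in sgKDM5C_5, with no overlap between these 3 populations. *ITGB7* fell by 2.75 (standard error 0.28) on the log2 scale in sgKDM5C_5 (edgeR, adjusted p = 3.2e-08), while the log2 fold change of 0.81 in sgKDM5C_4 was not called (adjusted p = 0.003). Both double populations with sgKDM5C_4 kept 3.64 to 4.42 CPM. In contrast, sgKDM5C_5_sgKDM5D_2 had 0.955 to 1.55 CPM and sgKDM5C_5_sgKDM5D_4 only 3, 1 and 1 counts, a ratio to sgCtrl of 0.0288 (95% counting interval 0.00925 to 0.0685). The log2 difference between the *KDM5C* guides was 3.56 in single and 3.74 in double populations. *ITGB7* and the gene *ZNF740* overlap on opposite strands, and *ZNF740* had 1220% of the counts of *ITGB7*, and the part of such reads in its level was not tested. In contrast to *ITGA4*, the 250 bases before the start of *ITGB7* (chr12:53207252-53207501 of GRCh38.p14, minus strand) hold 2 CpG dinucleotides, in capitals.
ITGB7: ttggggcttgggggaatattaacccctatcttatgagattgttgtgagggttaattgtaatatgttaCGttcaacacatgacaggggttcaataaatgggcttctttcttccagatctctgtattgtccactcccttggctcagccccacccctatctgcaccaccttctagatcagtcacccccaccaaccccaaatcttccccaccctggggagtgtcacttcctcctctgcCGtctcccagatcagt

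*ITGB2* (ENSG00000160255, chr21:46305868-46351904 of GRCh37, minus strand) encodes beta 2, the common subunit of the leukocyte integrins. It was the gene called in both sgKDM5D populations. Its level was 1.86, 1.88 and 1.81 CPM in sgCtrl, 3.78, 4.14 and 4.25 CPM in sgKDM5D_2 and 10.9, 9.34 and 8.10 CPM in sgKDM5D_4. *ITGB2* rose by 1.13 (standard error 0.16) and 2.35 (0.15) on the log2 scale (edgeR, adjusted p = 1.4e-05 and 9.8e-13), and the log2 difference between sgKDM5D_2 and sgKDM5D_4 was -1.22 (adjusted p = 4.0e-08). With guides against *KDM5C* it followed the guide. The libraries of sgKDM5C_4 had 6.02 to 8.03 CPM and those of sgKDM5C_5 had 1.30 to 1.94 CPM. Double populations with sgKDM5C_4 had 7.49 to 9.98 CPM and those with sgKDM5C_5 had 1.13 to 2.35 CPM, although the same sgKDM5D guides were present in both. The log2 difference between the *KDM5C* guides was 2.14 in single and 2.41 in double populations (edgeR, adjusted p = 6.3e-11 and 2.2e-15). The interaction was -1.61 (adjusted p = 4.8e-08), meaning that the double populations lay below the sum of the single changes. Leukocyte markers, with 6 of 6 in the table, summed to 0.103 to 0.193 CPM in sgCtrl and to 0.210 to 0.643 CPM in sgKDM5D_4, below the level of *ITGB2* in each. Of these, *CD3E* and *LYZ* never exceeded 1 count, and *PTPRC* never exceeded 17. *ITGB2-AS1* on the other strand and ENSG00000273027 on the same strand overlap *ITGB2*, with 15.7% and 5.23% of its counts.

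The leukocyte alpha subunits that pair with beta 2 stayed at low counts. *ITGAL* had at most 3 counts in any library. *ITGAM* was called in sgKDM5C_4_sgKDM5D_4 alone, where it had 43 to 49 counts per library against 6 to 9 in sgCtrl, or 1.5 to 1.65 CPM against 0.231 to 0.390 in sgCtrl (log2 fold change 2.45, edgeR adjusted p = 7.6e-06). *ITGAX*, at 0.103 to 0.347 CPM in sgCtrl, was not called in any population.

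The laminin alpha 5 chain gene *LAMA5* (ENSG00000130702, chr20:60883011-60942368 of GRCh37, minus strand), a chain of renal tubular and glomerular basement membranes, had the largest called changes among the laminin genes. It was at 10.9, 11.6 and 11.5 CPM in sgCtrl. Levels were higher in sgKDM5C_4 (37.1, 30.4 and 32.6 CPM) and in sgKDM5D_4 (48.6, 57.6 and 73.6 CPM), with no overlap with sgCtrl. In contrast, sgKDM5D_2 libraries had 8.26, 5.38 and 6.22 CPM, all below sgCtrl, and sgKDM5C_5 libraries had 22.5, 13.7 and 10.8 CPM, overlapping it. *LAMA5* rose by 1.56 (standard error 0.19) in sgKDM5C_4 and by 2.40 (0.19) in sgKDM5D_4 on the log2 scale (edgeR, adjusted p = 5.8e-07 and 4.7e-11). The values of 0.45 in sgKDM5C_5 (adjusted p = 0.1) and -0.77 in sgKDM5D_2 (adjusted p = 0.008) were not called. Of the double populations, sgKDM5C_4_sgKDM5D_4 was highest (83.0 to 93.3 CPM), followed by sgKDM5C_4_sgKDM5D_2 (48.3 to 55.7) and sgKDM5C_5_sgKDM5D_2 (38.8 to 48.8 CPM). These 3 were called, with log2 fold changes of 2.96, 2.18 and 1.99, whereas sgKDM5C_5_sgKDM5D_4 (14.5 to 20.01 CPM, log2 fold change 0.64, adjusted p = 0.012) was not. *LAMA5* was the only member called between the mean of the double populations and that of the sgKDM5C populations (1.62% of all genes), with a log2 difference of 0.94 (edgeR, adjusted p = 1.2e-06). The call between sgKDM5C_4 and sgKDM5C_5 (1.11, adjusted p = 6.9e-05) was lost without the 4 libraries that stood apart (1.04, adjusted p = 0.0013), without replicate 2 of sgKDM5C_5 alone (1.04, adjusted p = 0.0011) and without its replicate 3 (0.91, adjusted p = 0.0012). *ADRM1*, which overlaps *LAMA5* on the other strand, had 350% of its counts.

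*LAMA1* (ENSG00000101680, chr18:6941741-7117796 of GRCh37, minus strand), the alpha chain of embryonic laminin, was the only member called higher in one population and lower in another. Its level was low, 0.867, 0.959 and 0.770 CPM in sgCtrl. In sgKDM5D_4 the libraries had 3, 7 and 6 counts (0.134 to 0.257 CPM), all below sgCtrl, and *LAMA1* fell by 1.99 (standard error 0.29) on the log2 scale (edgeR, adjusted p = 2.1e-06). In sgKDM5C_4_sgKDM5D_2 it was at 1.84, 1.59 and 1.89 CPM, a log2 fold change of 1.03 (adjusted p = 0.00038) that did not pass the threshold with DESeq2 (1.03, adjusted p = 0.002) or in 5 of 6 edgeR fits that left out 1 library. The log2 difference between the *KDM5C* guides was 1.27 (edgeR, adjusted p = 0.00012) in single and 1.31 in double populations, and the first was not called without the 4 libraries that stood apart (1.17, adjusted p = 0.0035). It was also lost without replicate 2 of sgKDM5C_4 (1.24) or of sgKDM5C_5 (1.17). The chromosomal neighbours of *LAMA1* moved the other way in sgKDM5D_4, with a median log2 fold change of 0.50 over the 50 nearest tested genes.

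**Figure D3:**
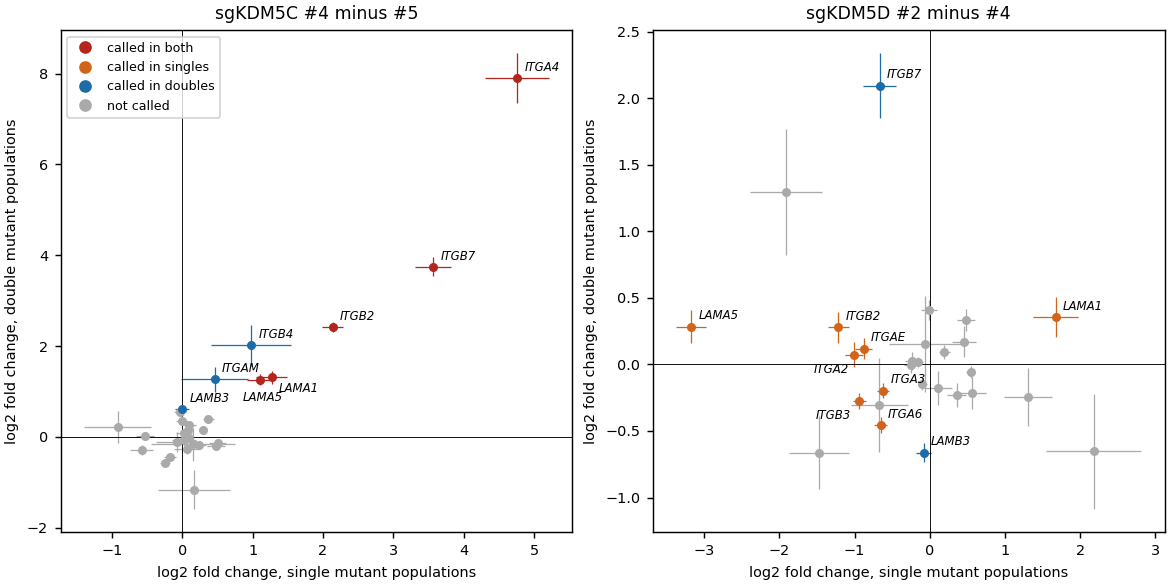
Log2 difference between guides against the same gene in single (horizontal) and double (vertical) mutant populations for each tested member, with standard errors, coloured by call. For *KDM5C* guides the 5 genes called in single populations lie in the upper right, whereas for *KDM5D* guides no gene was called on both axes, and *ITGA4*, at 0 counts in the double populations with sgKDM5C_5, is left out of that panel.

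The guides against *KDM5D* differed more widely in single mutant cells. Between sgKDM5D_2 and sgKDM5D_4, 9 members were called (20.8% of all genes), 8 lower (11.7%) and 1 higher (9.1%) with sgKDM5D_2. In the double populations 2 members were called between the same guides (2.2% of all genes), 1 higher (1.66%) and 1 lower (0.535%), and none of the 9 was among them. Over all genes, 114 of the 3541 called between the single populations (3.22%, and 30.5% of the 374 called between the double populations) were called in the same direction, and 94 in the opposite one. After *ITGA4* (-6.92), *LAMA5* had the largest difference, -3.17 (edgeR, adjusted p = 5.7e-13) between the single populations against 0.28 (adjusted p = 0.11, 95% interval 0.03 to 0.54) between the double populations. The second value averages opposite differences. With sgKDM5C_4, *LAMA5* was lower with sgKDM5D_2 (48.3 to 55.7 CPM) than with sgKDM5D_4 (83.0 to 93.3 CPM), and with sgKDM5C_5 it was higher with sgKDM5D_2 (38.8 to 48.8 CPM) than with sgKDM5D_4 (14.5 to 20.01 CPM), without overlap in either pair. *ITGA2*, a collagen receptor subunit, was at 5.42, 6.40 and 6.39 CPM in sgCtrl, at 7.10, 5.86 and 7.03 CPM in sgKDM5D_2 and at 13.4, 14.6 and 12.4 CPM in sgKDM5D_4. It differed by -1.01 (adjusted p = 8.5e-08) in single and by 0.07 (-0.11 to 0.26) in double populations. The genes called in double populations were *ITGB7*, with a log2 difference of 2.10, and *LAMB3*, the beta chain of laminin-332, with a log2 difference of -0.66. *LAMB3* was at 137 to 138 CPM in sgKDM5C_5_sgKDM5D_2 and at 284 to 325 CPM in sgKDM5C_5_sgKDM5D_4, around 184 to 227 CPM in sgCtrl. With sgKDM5C_4 it was at 273 to 308 CPM with sgKDM5D_2 and at 306 to 371 CPM with sgKDM5D_4, which overlapped. *ITGB7* likewise had overlapping levels with sgKDM5C_4, with means of 4.04 and 4.09 CPM, and 1.29 against 0.0671 CPM with sgKDM5C_5, the last from 5 counts in all. Both averaged values therefore came mainly from the populations with sgKDM5C_5.

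The fibronectin and vitronectin receptor subunits *ITGA5* and *ITGB3* were also among the genes called higher in sgKDM5D_4. *ITGA5* was at 142 to 174 CPM in sgCtrl and 282 to 289 CPM in sgKDM5D_4 (log2 fold change 0.83), and *ITGB3* at 46.2 to 49.8 and 102 to 129 CPM (1.23), both without overlap. In sgKDM5D_2 *ITGA5* (215 to 253 CPM) and *ITGB3* (53.6 to 62.8 CPM) were also above every sgCtrl library, though neither was called. Between the sgKDM5D guides *ITGB3* was called (-0.94) and *ITGA5* was not. *ITGA7*, a laminin receptor subunit best known in muscle, had 33 to 39 counts per library in sgCtrl and 9 to 14 in sgKDM5D_4 and fell by 1.53 on the log2 scale, a call that was lost in 3 of 6 fits without 1 library. Of the genes that overlap it on the other strand, *BLOC1S1* had 443% of its counts. Fibroblast markers summed to 14.3 to 17.8 CPM in sgKDM5D_4 against 5.01 to 5.89 in sgCtrl, with *COL1A1* at up to 16.7 CPM, and their part in these changes was not tested. Of the same markers, *PDGFRA* never exceeded 1 count and *DCN* never exceeded 6.

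Double mutant cells were then compared with single mutant cells. Between the mean of the 4 double populations and the mean of the 2 sgKDM5D populations 11 members were called (13% of all genes), 3 higher (*ITGB8*, *LAMA1* and *LAMA5*, beside 6.52% of all genes) and 8 lower (6.44%). Of the 8 lower genes, *ITGA2*, *ITGA5*, *ITGB3*, *ITGB2* and *ITGA4* had been called higher in sgKDM5D_4 cells. The log2 differences of the first 4 were -0.84, -0.60, -0.68 and -0.73, and that of *ITGA4* used populations at 0 counts. With the median of the 50 nearest tested genes removed, *ITGA5* was at -0.33 and *ITGB3* at -0.41, neither of them a call, and *ITGA5* also lost its call in 6 of 18 fits without 1 library. *ITGA10*, a collagen receptor subunit of cartilage, had 5, 12 and 9 counts in sgCtrl, 7 to 12 in sgKDM5D_2, 11 to 20 in sgKDM5D_4 and 2 to 8 in the double populations. These ranges overlapped, and its log2 difference of -1.23 (edgeR, adjusted p = 0.00027) was not called without the 4 libraries that stood apart (-1.11, adjusted p = 0.0013). The others were *ITGB7* (-0.91) and *ITGA3* (-0.63), which was at -0.24 and not called with the median of its neighbours removed. The interaction was called for 6 members (6.89% of all genes), 5 negative (3.67%; *ITGA2*, *ITGA4*, *ITGA5*, *ITGB2* and *ITGB3*, between -0.59 and -5.70) and 1 positive (3.21%; *LAMA1*, 1.52). When single libraries were left out, the interaction lost its call in 19 of 27 fits for *ITGA2*, in 14 for *ITGA5* and in 16 for *ITGB3*, and in none for *ITGA4*, *ITGB2* and *LAMA1*. Without the 4 libraries that stood apart it was not called for *ITGA2*, *ITGA5* and *LAMA1*. These contrasts average populations whose guides differ from each other, and their p-values measure the spread between libraries of a population and not between guides. With the populations taken as the units no gene was called in either comparison of double with single mutant cells, and 7 members (2741 of all genes) had an unadjusted p under 0.05 against the sgKDM5D populations and 1 member (244 of all genes) against the sgKDM5C populations in edgeR.

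For several members the neighbouring genes on the chromosome also shifted. *ITGA3* (chr17:48133332-48167845 of GRCh37), the alpha subunit gene with the highest mRNA level in sgCtrl, was the most abundant member to be called. It was at 1240 to 1377 CPM in sgCtrl and at 658 to 759 CPM in sgKDM5C_5, 683 to 793 in sgKDM5C_5_sgKDM5D_2 and 719 to 807 CPM in sgKDM5C_5_sgKDM5D_4, with no overlap. *ITGA3* fell by 0.89, 0.83 and 0.77 on the log2 scale (standard error 0.08 each), and its 50 nearest tested genes had medians of -0.49, -0.43 and -0.38. With that median removed, the remaining -0.40, -0.41 and -0.39 was under the 1.5-fold threshold. In the other populations *ITGA3* was not called. Its libraries also lay below every sgCtrl library in sgKDM5C_4 (866 to 933 CPM) and sgKDM5C_4_sgKDM5D_2 (799 to 934 CPM). The same held for sgKDM5C_4_sgKDM5D_4 (1033 to 1168 CPM) and sgKDM5D_2 (948 to 1166 CPM), whereas those of sgKDM5D_4 (1621 to 1699 CPM) lay above. The neighbours of *ITGB3*, also on chromosome 17, had medians of -0.57 and -0.46 in sgKDM5C_4 and sgKDM5C_5, while *ITGB3* itself was at -0.09 in each. *ITGAE*, on the other arm of chromosome 17, differed by -0.88 between sgKDM5D_2 and sgKDM5D_4, but its neighbours by -1.0, which left 0.12. The number of copies of these stretches was not measured.

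**Figure D4:**
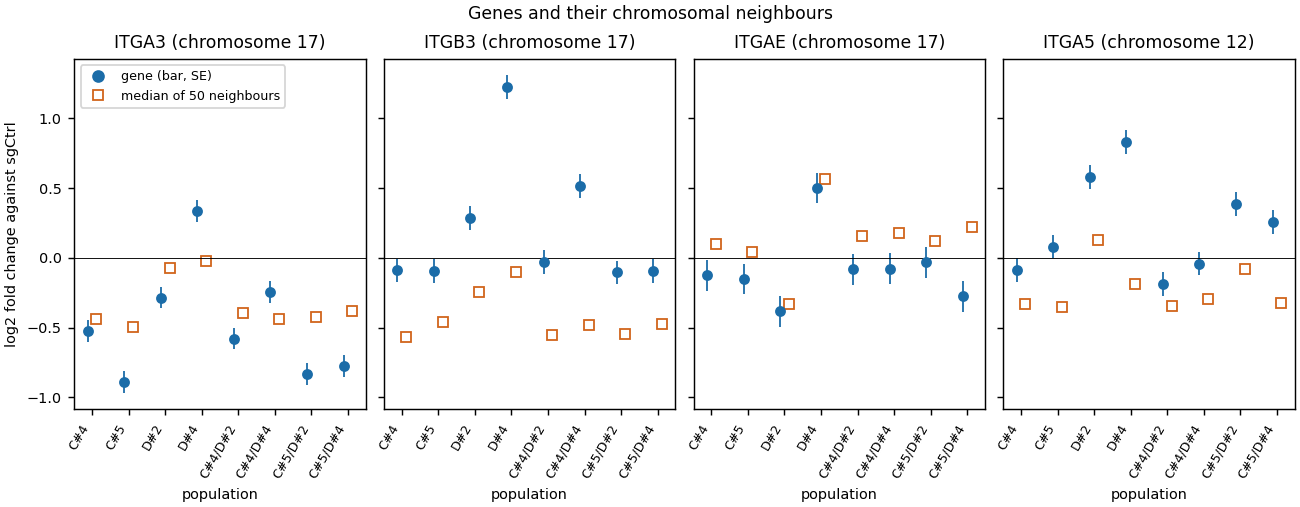
Log2 fold change against sgCtrl of 4 members (filled points, bars for the standard error) and the median of their 50 nearest tested genes (open squares) in the 8 mutant populations. For *ITGA3* the neighbours lie near -0.4 in every population with a *KDM5C* guide, and for *ITGAE* gene and neighbours lie together in both sgKDM5D populations.

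In contrast, 10 tested members were not called in any population: *ITGA9*, *ITGA10*, *ITGAV*, *ITGAE*, *ITGAX*, *ITGB1*, *ITGB4*, *LAMA2*, *LAMB1* and *LAMC1*. The beta subunit gene with the highest mRNA level, *ITGB1*, had population means between 939 and 1289 CPM, around 1132 ± 31.8 CPM (SD, n = 3) in sgCtrl, and log2 fold changes between -0.27 and 0.19. *ITGAV*, the partner of beta 3, beta 5, beta 6 and beta 8, had population means between 273 and 369 CPM, around 308 ± 42.8 CPM in sgCtrl. *LAMC1*, the gamma chain of most laminins, was between 0.20 and 0.52 on the log2 scale in all 8 populations, under the threshold of change. Among the partners of alpha v, *ITGB6* was called lower in sgKDM5C_4 and sgKDM5C_4_sgKDM5D_2 (log2 fold changes -0.77 and -0.65), and *ITGB5* higher in both double populations with sgKDM5C_5 (0.67 and 0.62). The second of these was lost in 2 of 6 fits without 1 library (0.53 without replicate 2 of sgCtrl and 0.57 without replicate 2 of its own population), with no filter (0.58), with the neighbours' median removed (0.58) and without the 4 libraries that stood apart (0.55). *LAMA3* and *LAMB2* were called higher in sgKDM5C_5_sgKDM5D_2 alone (0.80 and 0.77), as was *ITGA1* (0.71), whose call was lost in 5 of 6 fits without 1 library. *PELO*, which overlaps *ITGA1* on the same strand, had 629% of its counts. The calls of *ITGB6* were lost in 3 of 6 fits in each population. *ITGA6* was called in sgKDM5C_4_sgKDM5D_4 alone (0.67).

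Genes that act with integrins and laminins were read from 5 lists. None of 28 genes for integrin activation and adaptors was called in both sgKDM5C (2.02% of all genes), in both sgKDM5D (1.36%) or in all double populations (1.6%), and at most 6 were called in a single population, in sgKDM5D_4 (18.1% of all genes) and in sgKDM5C_4_sgKDM5D_4 (9.1%). Of 15 tested integrin ligands, 2 rose in both sgKDM5C populations (1.13% of all genes rose), *FN1*, which encodes fibronectin (log2 fold changes 1.05 and 0.83), and the matricellular gene *CCN2* (0.75 and 0.72). In both sgKDM5D populations 5 rose (0.958% of all genes), *FN1* (0.67 and 1.56), *CCN2* (1.14 and 1.0), the matrix genes *TNC* (0.94 and 1.62) and *FBN1* (1.04 and 4.10), and *VCAM1*. *VCAM1*, the counter-receptor of alpha 4 integrins, had log2 fold changes of 0.72 and 2.09 there and of -1.41 in sgKDM5C_5. It was also called lower in sgKDM5C_4_sgKDM5D_4 (-1.20), sgKDM5C_5_sgKDM5D_2 (-1.87) and sgKDM5C_5_sgKDM5D_4 (-2.39). No ligand was called in all 4 double populations. *FN1* was called higher in sgKDM5C_4_sgKDM5D_2 (0.94), sgKDM5C_4_sgKDM5D_4 (1.03) and sgKDM5C_5_sgKDM5D_4 (0.65). Its 0.52 in sgKDM5C_5_sgKDM5D_2 was under the threshold of change. *CCN2* was called higher in both double populations with sgKDM5C_4 (0.82 and 0.96). In sgKDM5C_5_sgKDM5D_2 *FBN1* was called higher (0.84) and *TNC* lower (-0.67). Of 11 tested basement membrane genes and other laminin receptors, *NTN4*, a netrin, fell in both sgKDM5C populations (0.893% of all genes fell), with log2 fold changes of -0.69 and -0.60. *NTN4* was also called lower in sgKDM5D_4 (-0.72), sgKDM5C_4_sgKDM5D_2 (-0.69) and sgKDM5C_5_sgKDM5D_4 (-0.95). In both sgKDM5D populations *NID2*, which links laminin to collagen, rose, with log2 fold changes of 1.31 and 4.04. It was called lower in sgKDM5C_4 (-0.84) and higher in sgKDM5C_5 (1.97). In double populations *NID2* followed the *KDM5C* guide, at -0.75 and -0.92 with sgKDM5C_4 and at 2.04 and 1.49 with sgKDM5C_5. The syndecan gene *SDC2* (-1.49 and -1.14) and *FREM2* (-4.73 and -4.35) fell in both sgKDM5D populations (0.4% of all genes). *FREM2* was low, at 1.18 CPM in sgCtrl, between 0 and 1.91 CPM over all libraries and with at most 55 counts in any library. The size of its fall is therefore uncertain. *FREM2* was also called lower in sgKDM5C_5 (-1.53) and sgKDM5C_5_sgKDM5D_2 (-1.36). *SDC2* was called higher in sgKDM5C_4_sgKDM5D_4 (0.89) and sgKDM5C_5_sgKDM5D_4 (0.66). Of 7 tested hemidesmosome and tetraspanin genes *PLEC* rose in both sgKDM5C populations (0.61 and 0.59). *PLEC* was also called higher in sgKDM5D_4 (0.71), sgKDM5C_4_sgKDM5D_2 (0.77), sgKDM5C_4_sgKDM5D_4 (0.91) and sgKDM5C_5_sgKDM5D_4 (0.75). Of 7 tested genes for latent TGF-beta, which alpha v integrins bind, *LTBP1* and *LTBP4* rose in both sgKDM5C populations and *LTBP3* and *LTBP4* in both sgKDM5D populations. Among double populations, *LTBP1* was called lower in sgKDM5C_4_sgKDM5D_4 (-1.34) and higher in the others (1.41 to 2.22). In sgKDM5D_4 cells 6 of the 7 rose (10.7% of all genes), with a median log2 fold change of 2.16, in the population whose fibroblast markers summed to 14.3 to 17.8 CPM against 5.01 to 5.89 in sgCtrl. The part of these markers in that count was not tested. *LTBP4*, which anchors latent TGF-beta to the matrix, was called higher in all 4 double populations too (1.12% of all genes), with log2 fold changes between 0.96 and 2.43 over the 8 populations.

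The upstream sequences of *ITGB8*, *ITGA4* and *ITGB7* above were read against all others. The set of RefSeq promoters used here held an entry for 26 of the 36 genes, with none for *ITGA3*, *ITGA7*, *ITGA9*, *ITGAL*, *ITGAX*, *ITGB2*, *ITGB3*, *ITGB4*, *LAMA1* and *LAMC3*. The 250 bases before the start held a median of 12 CpG dinucleotides in the 15 members at or above 5 CPM in sgCtrl and of 5 in the 11 members below it, beside 11 over 27305 promoters. *ITGA4*, with 25, lay above this median although it was close to absent in sgCtrl. *LAMA5*, also called between the *KDM5C* guides, held 32. The GC box GGGCGG, searched on both strands, was present in 13 of the 26 members and in 42.3% of all promoters, and the letters ACGTG, the core of hypoxia response elements, in 2 of the 26 and in 18.7% of all promoters.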

How the data were processed

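RNA-seq libraries were stranded and paired-end (TruSeq). Per the labels, the authors trimmed reads with Trimmomatic 0.38 and aligned them to GRCh37 with STAR 2.5.2b. The deposited values are raw counts per Ensembl gene, without normalization. The counting tool, its strand setting and its annotation are not given in the sources used here. Symbols were matched for 43521 of 57773 identifiers, with positions from GENCODE for GRCh37.

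Genes with at least 120 counts in sum were fitted over all 27 libraries with edgeR 4.0.16 in R 4.3.3 (TMM factors, 1 mean per population, common biological coefficient of variation 0.0973). Replicates differed by more than counting noise, and the chi-square of pairs within a population divided by its degrees of freedom was 4.07 to 35.1. The pipeline was tested on simulated data. Standard errors and intervals (95%) come from the fit, and counting intervals cover counting error only. Promoters are from RefSeq, GRCh38.p14. Overlapping genes are those of GENCODE.

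The members and lists were chosen with earlier results of these data known. Members called for a whole genotype, or changed over 2-fold between guides, between double and single mutant cells or in the interaction, are given in full, as are the most abundant members of each family. The others are given by counts and ranges, and those named beyond this were chosen after their values were seen. From each list at most 4 genes called for a whole genotype are named for each genotype, except for 5 ligands in sgKDM5D. Alternatives were RLE factors, no filter, DESeq2 1.42.0, a replicate block, an adjusted p under 0.05 with a change over 2-fold, the compared populations alone, the local median of 50 genes removed, populations as units and each library left out. Added after the data were seen were a term for the 4 libraries that stood apart, leaving them out, and the guide comparisons among double populations.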

Additional observations from a re-analysis of the deposited data

Results flagged for a closer look

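Guides against the same gene differed in a called comparison for several members. Between sgKDM5C_4 and sgKDM5C_5 the log2 differences were 4.76 for *ITGA4*, 2.14 for *ITGB2*, 3.56 for *ITGB7*, 1.27 for *LAMA1* and 1.11 for *LAMA5*. Between sgKDM5D_2 and sgKDM5D_4 they were -1.01 for *ITGA2*, -0.62 for *ITGA3*, -6.92 for *ITGA4*, -0.65 for *ITGA6*, -0.88 for *ITGAE*, -1.22 for *ITGB2*, -0.94 for *ITGB3*, 1.68 for *LAMA1* and -3.17 for *LAMA5*. With the median of the neighbouring genes removed, *ITGA3* (-0.55), *ITGA6* (-0.50) and *ITGAE* (0.12) were not called, and *ITGA3* also lost its call without replicate 1 of sgKDM5D_2 (-0.54).

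The combined guides differed from the sum of the single changes, by the interaction term, for 6 members. The log2 values were -0.65 for *ITGA2*, -5.70 for *ITGA4*, -0.60 for *ITGA5*, -1.61 for *ITGB2*, -0.59 for *ITGB3* and 1.52 for *LAMA1*. That of *ITGA4* rests on populations at 0 counts. With 3 libraries per population single outlying libraries were not tested.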

How the results depend on the processing

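Counts of members called kept within 1.5 times under RLE factors for 18 of 18 comparisons, under DESeq2 for 16 and under no filter for 14. With no filter 3 members were called in sgKDM5D_2, and 2 each in both sgKDM5D populations, in all 4 double populations and between double and sgKDM5C populations. DESeq2 gave 2 in sgKDM5D_2 and 2 between double and sgKDM5C populations. An adjusted p under 0.05 with a change over 2-fold gave 4 in sgKDM5C_5_sgKDM5D_2, 4 and 2 between double and sgKDM5D or sgKDM5C populations, 3 for the interaction and 1 between sgKDM5D guides in double populations. Fits of the compared populations alone gave 3 in sgKDM5C_4, 1 in sgKDM5C_5, 0 in sgKDM5D_2 (edgeR, with 14 of 23 tested members at an unadjusted p under 0.05), 2 in sgKDM5C_4_sgKDM5D_2 and 3 between sgKDM5C guides, and do not apply to the interaction, which uses all populations. Removing the local chromosomal change gave 3 in sgKDM5C_5_sgKDM5D_4 and turned *ITGAE* between sgKDM5D guides from -0.88 to 0.12. A term for the 4 libraries that stood apart gave 2 in sgKDM5D_2, 3 in sgKDM5C_5_sgKDM5D_4 and 2 in both sgKDM5D populations. Leaving these libraries out gave 2, 3 and 2 as well, and 3 each between sgKDM5C guides and for the interaction. With populations as units 0 members were called between double and either single mutant populations, and *ITGB7* against sgKDM5D turned from -0.91 to 0.15. Beyond what a setting leaves out or adds by construction, the cause was not tested.

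The replicate numbers showed no clear pairing of the libraries. This check cannot exclude pairing, because the 4 libraries that stood apart do not all share a number. The component on which they stood apart held 41% of the variance of the deviations. Deviations of same-numbered libraries had a mean correlation of -0.0599 over 108 pairs, of which 35 were over 0.1, against 0.0302 for different numbers, and 2 of 27 libraries correlated best with their own number. The replicate block kept 18 of 18 counts within 1.5 times, with 5 members called in sgKDM5C_4 and 8 in sgKDM5D_4, and ended the calls of *ITGA1* in sgKDM5C_5_sgKDM5D_2 (0.71) and of *ITGB4* between sgKDM5C guides in double populations (2.03).

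Leaving out 1 library at a time gave 1 to 2 members in sgKDM5D_2, 3 to 5 in sgKDM5C_5_sgKDM5D_4, 3 to 6 for the interaction, 0 to 1 in both sgKDM5C populations, 1 to 2 in both sgKDM5D populations, 3 to 6 between sgKDM5C guides and 1 to 2 between double and sgKDM5C populations. The 0 in both sgKDM5C populations arose without replicate 1 or 3 of sgCtrl or replicate 2 of sgKDM5C_5, and the 3 between sgKDM5C guides without the last of these. The 3 in sgKDM5C_5_sgKDM5D_4 arose without replicate 2 of sgCtrl or of that population. The 2 in sgKDM5D_2 and in both sgKDM5D populations arose on leaving out any 1 of the sgCtrl libraries or replicate 1 of sgKDM5D_2. The 2 between double and sgKDM5C populations arose without replicate 2 of sgKDM5C_5 or replicate 1 of sgKDM5C_4_sgKDM5D_4. The interaction count was 3 on leaving out any 1 of 8 libraries, namely replicate 2 of sgKDM5C_4, replicate 3 of sgKDM5D_2, replicate 1 of sgKDM5C_4_sgKDM5D_2, replicates 1 and 3 of sgKDM5C_4_sgKDM5D_4, replicates 1 and 3 of sgKDM5C_5_sgKDM5D_2, or replicate 3 of sgKDM5C_5_sgKDM5D_4. Of 834 such single-gene values 110 lost their call and 0 changed direction. Members with few counts, such as *ITGA4* and *LAMA1*, are limited by depth, as 3 counts correspond to between 0.0698 and 0.143 CPM in a library.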
